A study of Mus musculus with 11 samples.

Results

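ERVL elements are endogenous retroviruses of class III, and the copies described here are the 15427 of 118581 annotated ERVL copies (13.01%) that were above 0 TPM (transcripts per 1000000) in at least 1 library of the deposited table of transposable element (TE) copies, with the related ERVL-MaLR family left out. Over all TE families, 578629 of 3725827 copies (15.5%) were above 0. The RNA came from whole testes of mice collected at P5, when spermatogonia and several somatic cell types are present, and it was poly-A selected and sequenced with the strand kept. The 4 genotypes were compared over 11 libraries: 2 of WT, 3 of Dnmt3C KO (Dnmt3CKO/KO, which lack a DNA methyltransferase of the male germline), 3 of Nrf1 cKO (labelled Nrf1KO/KO; a floxed and a null Nrf1 allele with Ddx4-Cre, also called Vasa-Cre, which drives the deletion in germ cells), and 3 of dKO, which carry both. All mice were C57Bl6/J. The somatic cells of Nrf1 cKO and dKO testes keep the floxed Nrf1 allele but carry the null allele as well. The sample titles name germ cells, whereas the tissue and cell type labels and the extraction protocol name testes with their somatic cells, and the mean log2 CPM of 7 Sertoli cell markers was between 6.46 and 7.72 in every library. The labels do not say whether each library is 1 animal, so p-values measure the spread between these libraries.

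MERVL is the youngest ERVL element of the mouse. An intact copy is an internal part, MERVL-int, which encodes retroviral proteins, between a pair of MT2_Mm long terminal repeats (LTRs), which carry the promoter and the transcript end. It is known for a burst of transcription in the embryo at the 2-cell stage, where the homeobox factor DUX activates MT2_Mm and where genes with an MT2_Mm copy at their start site are transcribed with it, and for silencing by H3K9 methylation and other chromatin repressors afterwards. MT2A, MT2B, MT2C_Mm and MERVL_2A-int are older relatives, and RMER15, RMER10A and the MLT2 and MER subfamilies are older still, mostly as solitary LTRs that often lie in introns.

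The 15427 copies belonged to 112 subfamilies. MERVL-int gave 976 of its 2600 copies (37.5%) and MT2_Mm gave 757 of 2667 (28.4%), while the other MT2 and MERVL subfamilies gave 5247 of 40901 (12.8%). The number of copies above 0 went from 2447 for Nrf1 cKO replicate 1, the library with the fewest ERVL counts, to 5052 in WT replicate 1, the library with the most. Only 401 copies were above 0 in all 11 libraries, and 7725 (50.1%) were above 0 in a single library.

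Start sites of annotated genes inside MT2_Mm copies show what the youngest ERVL promoter holds. In the RefSeq promoter table of GRCm38.p6, which gives 250 bases before and 50 after each start, 32 start sites of 30 genes lay inside a copy described here, 9 of them in MT2_Mm. Shown are 3 windows that lie wholly in an MT2_Mm copy, with the core of the DUX-type motif GATTNAATC, searched on both strands, in capitals: Gm35974 at chr16:3468210-3468509 (+ strand, MT2_Mm_dup2337), Pemt, which encodes the phosphatidylethanolamine methyltransferase, at chr11:60040139-60040438 (- strand, MT2_Mm_dup1776), and Gm12790 at chr4:101975056-101975355 (- strand, MT2_Mm_dup641). The last sequence is Tbc1d23 at chr16:57201422-57201721 (- strand), whose start site is in the first bases of MT2_Mm_dup2398, and its capitals mark the 51 bases that belong to that copy.
Gm35974: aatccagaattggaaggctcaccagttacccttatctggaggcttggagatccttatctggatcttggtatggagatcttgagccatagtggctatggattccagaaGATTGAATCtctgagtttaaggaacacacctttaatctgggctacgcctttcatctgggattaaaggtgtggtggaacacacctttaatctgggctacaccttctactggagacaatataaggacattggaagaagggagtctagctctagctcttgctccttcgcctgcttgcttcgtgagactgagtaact
Pemt: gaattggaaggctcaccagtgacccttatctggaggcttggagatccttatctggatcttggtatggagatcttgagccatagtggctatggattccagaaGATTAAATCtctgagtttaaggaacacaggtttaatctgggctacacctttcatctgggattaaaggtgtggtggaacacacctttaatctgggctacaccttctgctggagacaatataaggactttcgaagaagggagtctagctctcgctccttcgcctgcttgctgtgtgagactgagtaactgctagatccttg
Gm12790: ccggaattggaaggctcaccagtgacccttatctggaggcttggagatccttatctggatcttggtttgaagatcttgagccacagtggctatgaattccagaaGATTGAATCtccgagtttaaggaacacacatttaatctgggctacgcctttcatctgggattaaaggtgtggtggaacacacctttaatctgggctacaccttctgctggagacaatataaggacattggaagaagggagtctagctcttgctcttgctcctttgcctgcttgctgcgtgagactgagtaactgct
Tbc1d23: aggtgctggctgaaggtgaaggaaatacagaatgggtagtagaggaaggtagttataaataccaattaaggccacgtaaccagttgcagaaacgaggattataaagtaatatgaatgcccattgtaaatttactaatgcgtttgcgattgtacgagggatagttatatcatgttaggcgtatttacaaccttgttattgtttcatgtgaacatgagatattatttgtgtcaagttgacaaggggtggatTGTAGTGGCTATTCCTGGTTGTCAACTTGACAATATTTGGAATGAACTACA

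The motif started 143 bases before the Gm35974 start site, 149 before that of Pemt and 146 before that of Gm12790. It was present in 8 of 8 windows wholly in an MT2_Mm copy, and in 8 of 9 that start in one, the exception being Tbc1d23. Among the 8, 2 overlapping windows of Gm33248 lie in MT2_Mm_dup1121 and hold the same match. Of the 23 windows that start in another ERVL copy, 1 held it, that of Sgk1 in MT2C_Mm_dup1187. Over all 32851 promoter windows, 88 (0.268%) held the same letters. The NRF1 motif GCGCANGCGC, searched in the same way, was in 0 of the 83 windows that overlap an ERVL copy and in 1512 (4.60%) of all windows. The windows that start in an ERVL copy held a median of 2 CpG sites, against 7 over all windows. These are matches of letters in the reference, not measured binding. The copies of the 3 motif windows shown had low values here. MT2_Mm_dup2337 was above 0 in 5 libraries (mean 0.56 TPM), and MT2_Mm_dup1776 and MT2_Mm_dup641 in 1 library each (0.098 and 0.093 TPM). MT2_Mm_dup2398, whose window lacks the motif, was above 0 in all 11 (17.2 TPM).

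The level of each subfamily was then taken from the count tables, in which a read that fits several copies of a subfamily counts for that subfamily once. Total counts per library lay between 26063590 and 39365841, of which TEs took 1.60 to 3.07%, and ERVL subfamilies gave between 9928 and 21408 counts. Levels are given as counts per 1000000 (CPM) scaled by TMM factors; they depend on copy number and length, so they are not compared between subfamilies as levels per copy. RMER15 had the most, with a mean of 73.4 CPM, followed by MT2B at 54.4, MERVL-int at 44.5, MERVL_2A-int at 32.2, RMER10A at 25.9 and MT2_Mm at 23.0 CPM. The sum over 108 ERVL subfamilies was 578 and 503 CPM in WT, 489, 363 and 415 for Dnmt3C KO, 301, 392 and 454 for Nrf1 cKO, and 560, 404 and 454 for dKO.

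MERVL-int, the internal part, stood at 60.4 and 51.3 CPM in WT. It was at 41.3, 33.0 and 38.7 CPM for Dnmt3C KO, at 35.2, 34.7 and 47.9 for Nrf1 cKO, and at 53.1, 45.0 and 49.2 for dKO. Both single mutants lay below WT in every library, dKO lay above Dnmt3C KO in every library, and dKO overlapped WT and Nrf1 cKO. MT2_Mm, its LTR, stood at 27.98 and 28.27 CPM in WT, at 20.4, 19.0 and 19.4 for Dnmt3C KO, at 16.1, 22.1 and 25.6 for Nrf1 cKO, and at 27.9, 23.5 and 23.2 for dKO. The order of the genotypes was that of MERVL-int, except that all 3 dKO libraries lay below both WT libraries.

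In MERVL_2A-int, MT2B and RMER15 the mean was highest in WT and lowest in Nrf1 cKO. MERVL_2A-int was at 40.4 and 37.6 CPM in WT, at 33.0, 26.3 and 30.2 for Dnmt3C KO, at 24.5, 27.6 and 31.2 for Nrf1 cKO, and at 38.1, 30.5 and 34.7 for dKO. MT2B was at 71.3 and 65.0 CPM in WT, at 60.7, 44.6 and 54.5 for Dnmt3C KO, at 36.0, 45.9 and 49.8 for Nrf1 cKO, and at 70.2, 49.04 and 51.5 for dKO. RMER15, the subfamily with the most counts, overlapped between all genotypes, with 86.5 and 70.9 CPM in WT, 83.9, 59.2 and 74.9 for Dnmt3C KO, 53.2, 64.4 and 84.0 for Nrf1 cKO, and 84.0, 70.1 and 76.3 for dKO. In Nrf1 cKO, replicate 1 was the lowest library for RMER15, MT2B, MERVL_2A-int and MT2_Mm.

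**Figure D1:**
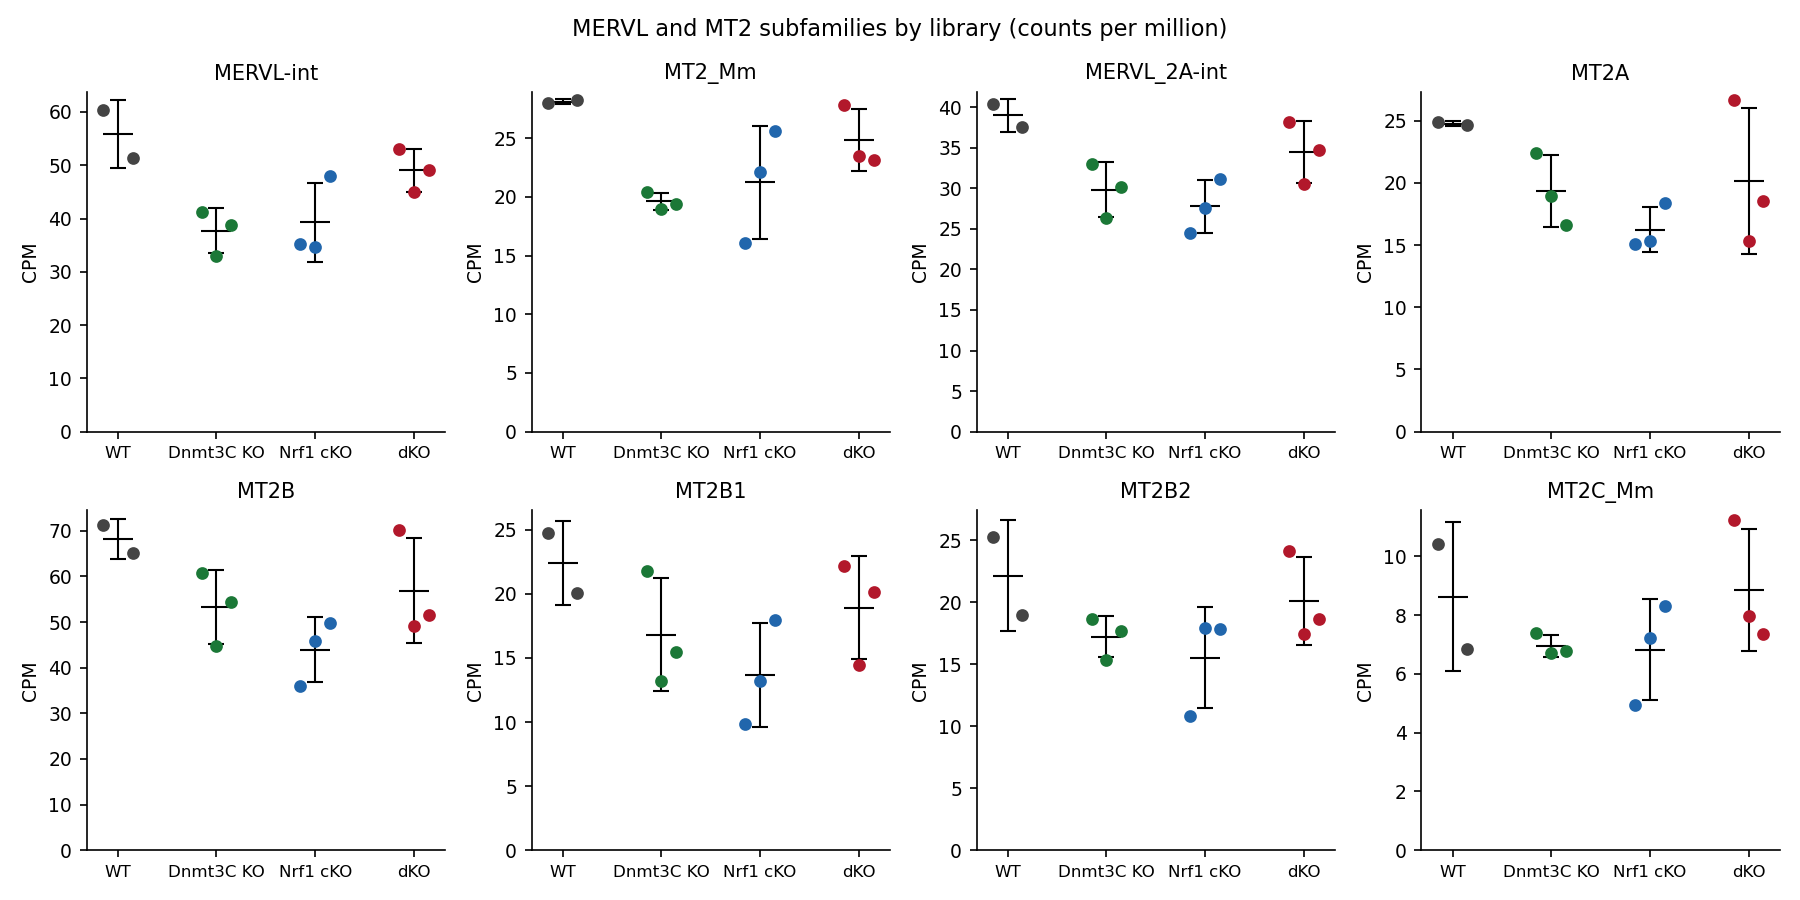
CPM of 8 MERVL and MT2 subfamilies, 1 point per library, by genotype (WT n = 2, others n = 3), with the mean and SD as a black bar. MERVL-int is below 51.3 CPM in every Dnmt3C KO and Nrf1 cKO library and spans 45.0 to 53.1 CPM for dKO.

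No ERVL subfamily passed an adjusted p of 0.01 in any of the 9 comparisons, by edgeR's quasi-likelihood test over all genes and TE subfamilies (6 pairs of genotypes, the interaction, Nrf1 deleted over intact, and Dnmt3C lost over intact). The DESeq2 Wald test also called 0. Over all features tested, 0.00% passed in each of the 6 pairs and in the interaction, and 0.00458% in each of Nrf1 deleted over intact and Dnmt3C lost over intact. At an unadjusted p under 0.05, edgeR gave 1 higher and 7 lower of 86 ERVL subfamilies in Dnmt3C KO over WT (all features: 2.56% higher and 2.86% lower), and DESeq2 gave 0 and 6. In Nrf1 cKO over WT these were 0 higher and 14 lower of 81 (all features: 1.53% and 4.22%), and in the interaction 16 higher and 1 lower of 88 (3.68% and 1.86%); DESeq2 gave 0 and 10, and 15 and 1. In dKO over Nrf1 cKO edgeR gave 4 higher and 0 lower of 78 (all features: 1.94% and 0.868%), and in dKO over Dnmt3C KO 3 and 0 of 80 (3.09% and 4.08%). Nrf1 deleted over intact gave 0 and 1 of 85 (3.57% and 4.3%). The remaining 3 gave 0 on both sides: dKO over WT (0.544% and 1.19% of all features), Dnmt3C KO over Nrf1 cKO (6.27% and 4.32%) and Dnmt3C lost over intact (1.78% and 1.03%).

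MERVL-int gave the smallest p of the ERVL subfamilies in Dnmt3C KO over WT, with a log2 fold change of -0.57 (SE 0.147, edgeR adjusted p = 0.692). In Nrf1 cKO over WT it was -0.52 (SE 0.196, edgeR adjusted p = 0.837), and in dKO over WT -0.19 (SE 0.158). MT2_Mm was -0.52 for Dnmt3C KO over WT (SE 0.144, edgeR adjusted p = 0.788), -0.41 for Nrf1 cKO over WT (SE 0.215, edgeR adjusted p = 0.933) and -0.18 for dKO over WT (SE 0.161). On the copy table, MT2_Mm in Nrf1 cKO over WT turned to 0.25. Its summed TPM was 478 and 507 in WT and 675, 544 and 551 for Nrf1 cKO, all above WT. A fragment of 31 bases, MT2_Mm_dup235, held 24.0% of the mean MT2_Mm TPM. It was at 114 and 96.4 TPM in WT and at 282, 142 and 104 for Nrf1 cKO. Over MT2_Mm copies of 400 bases or more, the sums overlapped. They were 284 and 321 TPM in WT and 298, 319 and 337 for Nrf1 cKO. With library sizes from TE counts alone, MERVL-int and MT2_Mm both turned to 0.026 in dKO over WT. In Nrf1 cKO over WT both also changed sign under that scaling. The 3 comparisons with WT share the 2 WT libraries.

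With Dnmt3C lost on both sides, dKO over Dnmt3C KO, MERVL-int was 0.38 (SE 0.120, edgeR adjusted p = 0.675) and MT2_Mm 0.34 (SE 0.123, edgeR adjusted p = 0.675). With Nrf1 deleted on both sides, dKO over Nrf1 cKO, they were 0.33 (SE 0.155) and 0.23 (SE 0.185). With library sizes from TE counts alone these turned to -0.0064 and -0.087, by summed TPM MT2_Mm turned to -0.29, and with 1 library left out it fell as low as 0.062. The interaction, which asks whether Dnmt3C loss had the same effect with Nrf1 deleted as with Nrf1 intact, was 0.89 for MERVL-int (SE 0.221, edgeR adjusted p = 0.895), 0.75 for MT2_Mm (SE 0.238, edgeR adjusted p = 0.895) and 1.29 for ERVL-B4-int, an older internal part (SE 0.345, edgeR adjusted p = 0.895). By summed TPM the interaction of MT2_Mm turned to -0.039. Both values from summed TPM in this paragraph include MT2_Mm_dup235, which held 24.0% of the MT2_Mm TPM, and the values without it were not computed. Over MT2_Mm copies of 400 bases or more, the mean sums were 302 TPM in WT, 253 for Dnmt3C KO, 318 for Nrf1 cKO and 293 for dKO. Averaged over both Dnmt3C states, Nrf1 deletion gave -0.02 for MERVL-int and 0.00 for MT2_Mm, and Dnmt3C loss averaged over both Nrf1 states gave -0.08 and -0.11.

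ERVL subfamilies had medians close to those of the other TEs. Their median log2 fold change was -0.36 for Dnmt3C KO over WT, against -0.34 over TE subfamilies outside ERVL. It was -0.53 against -0.56 for Nrf1 cKO over WT, -0.18 against -0.20 for dKO over WT, 0.32 against 0.34 for dKO over Nrf1 cKO, and 0.69 against 0.68 in the interaction. The median of MERVL-int and MT2_Mm alone was -0.54 for Dnmt3C KO over WT. For dKO over Dnmt3C KO it was 0.36 against 0.14 outside ERVL, and for Dnmt3C KO over Nrf1 cKO -0.08 against 0.20. In the 4 comparisons of the sentence before, in that order, this median was -0.47, -0.18, 0.28 and 0.82. Of the TE subfamilies outside ERVL, 29.5% had an unadjusted p under 0.05 for Nrf1 cKO over WT and 29.7% in the interaction, against 17.3% and 19.3% of the ERVL subfamilies and 5.75% and 5.55% of all features. All Nrf1 cKO libraries lay below both WT libraries in 41 of 81 ERVL subfamilies, beside 21.3% of all features not overlapping in either direction. In Dnmt3C KO over WT, 27 of 86 were all below and 1, LTR105_Mam, all above, again beside 21.3%. In dKO over WT, 9 of 84 were all below, MT2_Mm among them, and 2 all above, beside 13.2%. In dKO over Dnmt3C KO, 12 of 80 were all above, MERVL-int and MT2_Mm among them, beside 13.6% of all features, and 9 of 78 were all above in dKO over Nrf1 cKO, beside 7.43%.

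**Figure D2:**
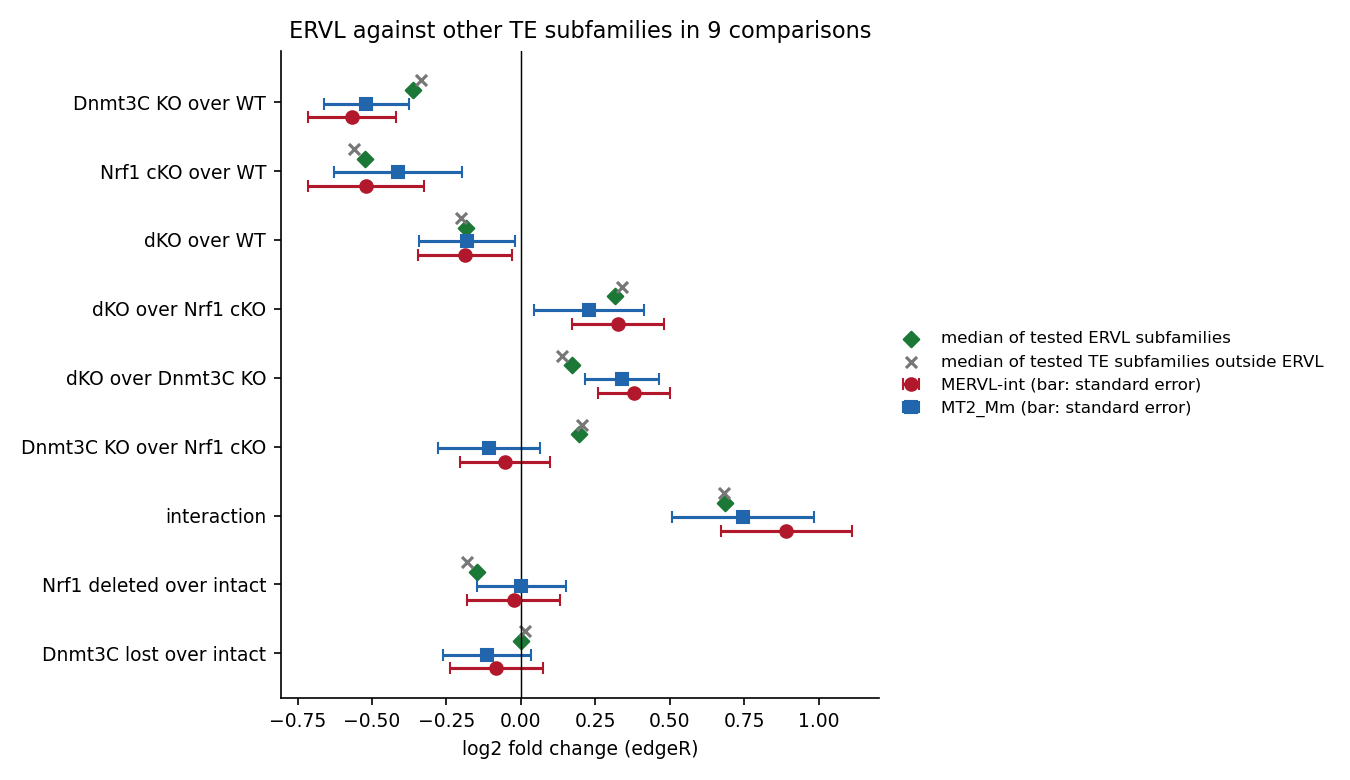
Log2 fold change by edgeR in 9 comparisons for MERVL-int and MT2_Mm (bars are standard errors), with the median of the tested ERVL subfamilies and of the tested TE subfamilies outside ERVL. The medians lie close together in each comparison, at -0.53 and -0.56 for Nrf1 cKO over WT, for example.

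The summed level of TE subfamilies outside ERVL went from 16058 CPM for Nrf1 cKO replicate 1 to 29343 CPM for dKO replicate 1. Over the 11 libraries and on the log2 scale it went with MERVL-int at Pearson's r = 0.75 (permutation p = 0.00376, Benjamini-Hochberg adjusted over 6 relations 0.0113; Spearman's rho = 0.83, permutation p = 0.00290) and with MT2_Mm at r = 0.83 (permutation p = 0.00240, adjusted 0.0113; rho = 0.78, permutation p = 0.00676). Leaving out the 2 libraries farthest from the median gave r = 0.81 and 0.64. The permutations ran over all 11 libraries without regard to genotype, so differences between genotypes alone can give such p-values. The mean TE level outside ERVL was 28885 CPM in WT, 24423 for Dnmt3C KO, 20706 for Nrf1 cKO and 26944 for dKO. The relation within a genotype was not tested. The mean log2 levels of the germ cell and Sertoli cell markers gave r between -0.01 and 0.30, with adjusted permutation p of at least 0.715. Without the 2 libraries farthest from the median these were between 0.01 and 0.58, the highest being the Sertoli cell markers with MT2_Mm, which went from 0.30 to 0.58 without Nrf1 cKO replicate 3 and WT replicate 2. When library sizes were taken from TE counts alone, MERVL-int was -0.21 for Dnmt3C KO over WT, 0.05 for Nrf1 cKO over WT and 0.20 in the interaction, and in dKO over Dnmt3C KO it was 0.25 (edgeR adjusted p = 0.736). In the same 4 comparisons MT2_Mm was then -0.15, 0.13, 0.06 and 0.20. This scaling was chosen after seeing the data.

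**Figure D3:**
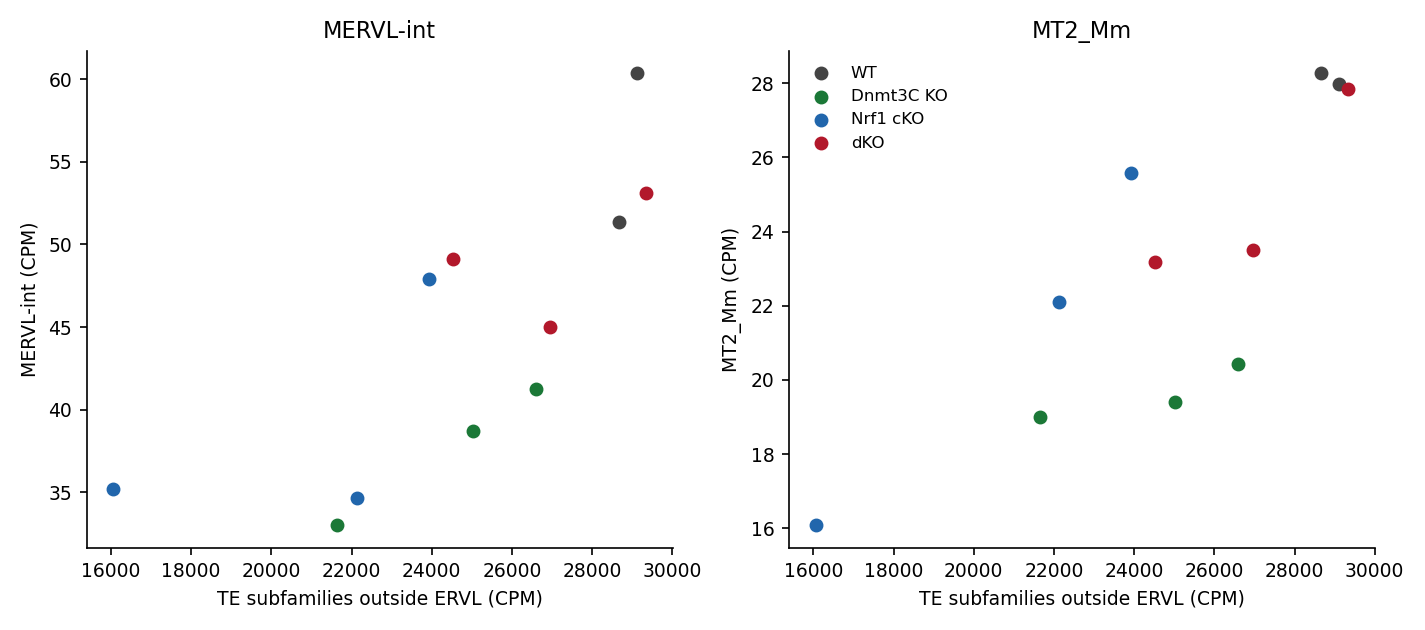
MERVL-int (left) and MT2_Mm (right) in CPM against the summed CPM of all TE subfamilies outside ERVL, 1 point per library coloured by genotype. Both tend to be higher where other TEs are higher, with r on the log2 scale of 0.75 for MERVL-int and 0.83 for MT2_Mm.

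Of 17 germ cell markers tested in the same libraries, among them Ddx4, an RNA helicase of germ cells, and Dazl, an RNA-binding protein of germ cells, 13 were lower in Nrf1 cKO over WT at an unadjusted p under 0.05 (all features: 4.22% lower and 1.53% higher), with a median log2 fold change of -1.25 and none at the adjusted threshold. In bulk tissue, fewer cells of a type and less RNA per cell cannot be told apart. Ddx4 was at 65.7 and 60.8 CPM in WT, at 39.1, 17.5 and 19.8 for Nrf1 cKO, and at 55.3, 52.4 and 27.2 for dKO. Dnmt3C KO, at 85.1, 54.8 and 71.9 CPM of Ddx4, overlapped WT, and its MERVL-int lay below WT. Apart from the correlations with the marker levels above, the part of germ cell content in the ERVL values was not tested. Counts of Nrf1 (1496 to 2185) and Dnmt3c (104 to 179) overlapped between the genotypes in these whole testes, so these counts do not check the labels.

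As a share of the TPM of all TE copies, in which genes have no part, ERVL took 1.65% and 1.54% in WT, 1.65%, 1.60% and 1.495% for Dnmt3C KO, 1.66%, 1.56% and 1.65% for Nrf1 cKO, and 1.73%, 1.33% and 1.59% for dKO. The groups overlapped, and the 2 ends of the range, dKO replicates 1 and 2, were of the same genotype. With Nrf1 deleted the share was 1.588% ± 0.137 (SD, n = 6) and with Nrf1 intact 1.586% ± 0.069 (SD, n = 5), a difference of 0.001 percentage points (exact p = 0.948, two-sided, from all 462 ways of dividing the libraries). In Dnmt3C-intact libraries alone the difference was 0.030 (exact p = 0.400, the smallest possible being 0.1), and in libraries without Dnmt3C it was -0.030 (exact p = 0.800). Of the 3 other LTR families tested in the same way, ERV1 had the smallest exact p, 0.0649 (0.260 adjusted over 4 families).

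The copy table hides how few reads stand behind most copies. Its TPM values are whole numbers of reads divided by copy length, so the reads could be recovered: 100% of values came out whole within 0.01 of a read. ERVL copies held 158517 reads over the 11 libraries. The median copy had 2 reads in all libraries together, 5270 copies (34.2%) had 1, and 217 had 100 or more. MERVL-int had 15563 reads, with 30 copies at 100 or more, and MT2_Mm had 7580, with 14. Because TPM divides by length, short fragments weigh most: copies under 50 bases were 4.39% of the ERVL copies, and took 17.4% of their TPM from 2.11% of their reads. For MERVL-int the 516 copies of 5000 bases or more held 56.2% of the reads and 15.1% of the TPM. These reads are whole numbers as the counting software assigned them, and a read that fits several near-identical copies may have been assigned to any of them, so the value of a single young copy is uncertain.

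**Figure D4:**
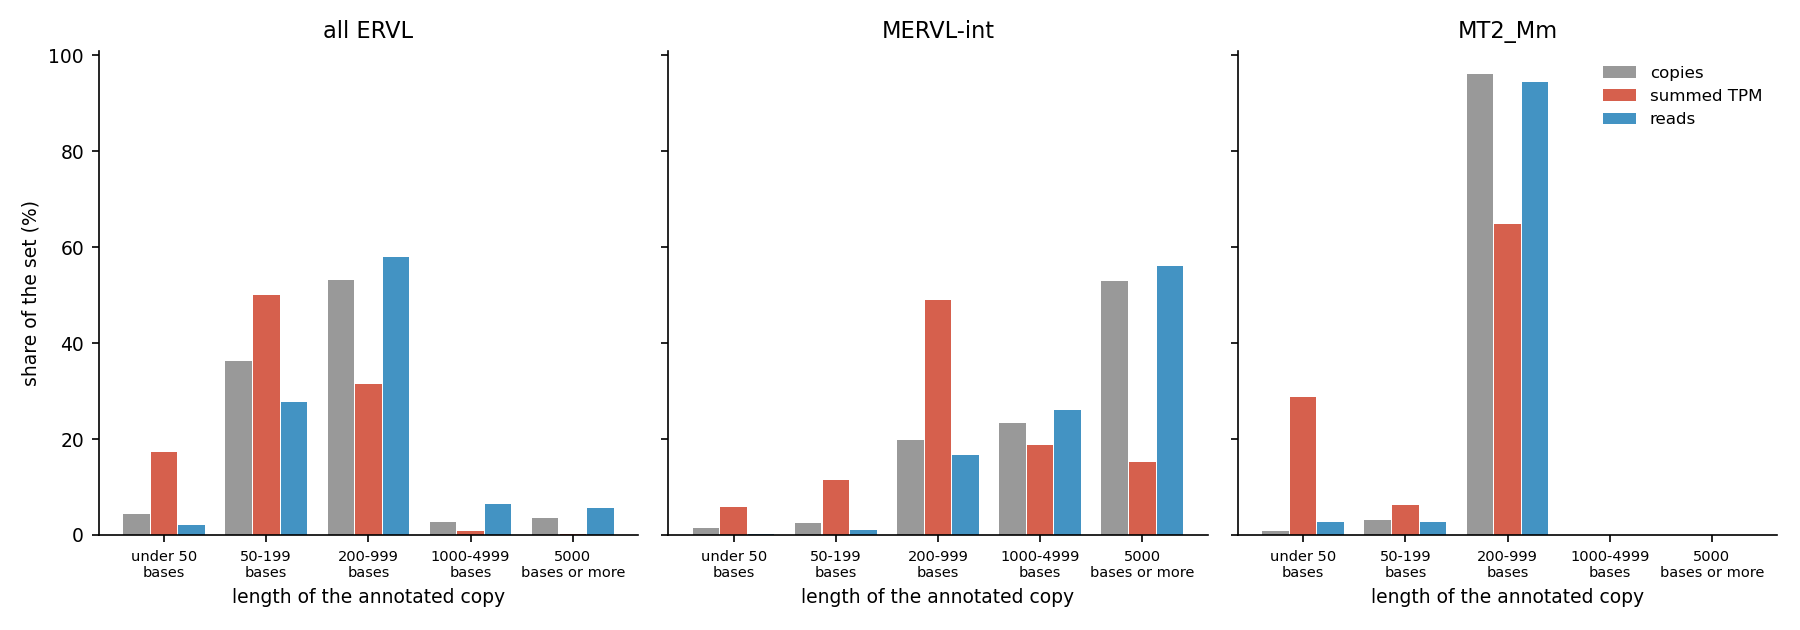
Share of ERVL, MERVL-int and MT2_Mm copies (grey), of their summed TPM (red) and of their reads over 11 libraries (blue) by length of the annotated copy. MERVL-int copies of 5000 bases or more hold 56.2% of the reads but 15.1% of the TPM.

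By position, 45.9% of ERVL reads came from 5324 copies in an intron on the gene's own strand, 37.8% from 6466 intergenic copies, 12.0% from 3343 copies antisense to a gene and 4.35% from 294 copies in an exon on the gene's strand. MERVL-int had 49.2% of its reads in 202 sense-intronic copies and 37.7% in 579 intergenic ones. MT2_Mm had 16.0% of its reads in 52 exonic copies, against 4.35% for all ERVL. A read in a sense intron cannot be assigned to the copy's own promoter or to the gene's unspliced transcript in these data.

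The copy with the most reads was RMER15_dup1660, 519 bases at chr2:31948669-31949187 (+ strand, GRCm38), between Lamc3, a laminin gene that ends 2130 bases before it, and Aif1l, which starts 952 bases after it, both on the same strand. It held 11729 reads, 7.40% of all ERVL reads and 43.8% of those of RMER15. Its reads were 1271 and 764 in WT, 1146, 991 and 1072 for Dnmt3C KO, 859, 1099 and 1129 for Nrf1 cKO, and 1150, 1063 and 1185 for dKO. In TPM it was 411 and 293 in WT, 465, 456 and 518 for Dnmt3C KO, 657, 516 and 699 for Nrf1 cKO, and 406, 485 and 563 for dKO, and the log2 difference of Nrf1 deleted over intact was 0.37 (limma adjusted p = 0.824). MER21C_dup323, 175 bases and intergenic, followed among the copies of highest mean TPM with 1271 reads, 40.2% of those of MER21C.

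Among MERVL-int copies, the highest mean TPM were in introns on the gene's strand. MERVL-int_dup199, in Echdc3, which encodes a protein with an enoyl-CoA hydratase domain, had 91 and 94 reads in WT, 88, 63 and 65 for Dnmt3C KO, 31, 70 and 55 for Nrf1 cKO, and 92, 67 and 66 for dKO. MERVL-int_dup1864, in Daam1, a formin of planar cell polarity signalling, had 672 reads and was highest in Nrf1 cKO replicate 1, with 113, against 35 and 37 in the other two. The MT2_Mm copy of highest mean TPM, MT2_Mm_dup235, is a fragment of 31 bases in an intron of Nr5a1, the steroidogenic factor of Sertoli and Leydig cells; it stood at 119 TPM from 167 reads.

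MT2_Mm_dup68, 487 bases antisense to the ephrin receptor gene Epha4, was at 0 in some libraries of a genotype and among the highest in others. It had 27 and 91 reads in WT, 0, 88 and 0 for Dnmt3C KO, 0, 70 and 71 for Nrf1 cKO, and 38, 70 and 0 for dKO, so 4 of 11 libraries were at 0 while 5 had 70 or more. Epha4 itself was at 9.71 and 6.25 CPM in WT, at 3.50, 10.2 and 3.68 for Dnmt3C KO, at 6.55, 3.94 and 16.8 for Nrf1 cKO, and at 8.60, 5.84 and 6.995 for dKO. The 2 Dnmt3C KO libraries without reads on the copy were also the lowest for Epha4 in that genotype, while Nrf1 cKO replicate 2, with 70 reads, was among the low ones.

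Fv1, a restriction gene against retroviruses that is itself derived from an ERVL-type gag, lies over ERVL-B4-int_dup322 in its coding sequence. The copy had 32 reads in all, and Fv1 was between 4.36 and 7.20 CPM in the 11 libraries, with WT holding both ends of that range.

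Intact units were then looked for, as MERVL-int copies of 5000 bases or more with an MT2_Mm copy within 200 bases on both sides: 575 of 595 such copies had them. Of these 575 units, 524 had a read, 396 had fewer than 10 over all libraries, 23 had 100 or more, and 27 were above 0 in all 11 libraries. The 10 units with most reads held 36.1% of 12394. First was the unit of MERVL-int_dup2329 in an intron of Tbc1d23, a Golgi trafficking gene, with MT2_Mm_dup2398, shown above, as its 3′ LTR: 114 and 184 reads in WT, 47, 74 and 49 for Dnmt3C KO, 62, 74 and 53 for Nrf1 cKO, and 100, 143 and 63 for dKO. Next were the units in introns of Tubgcp2, a gamma-tubulin complex gene, with 681 reads, and of Snapc3, a subunit of the factor that transcribes small nuclear RNA genes, with 515. Some units varied as much within a genotype as between genotypes: the intergenic unit of MERVL-int_dup2134 on chromosome 14 had 104 and 3 reads in WT.

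Summed over the 575 units and divided by the TE reads of the library, the level was 1574 and 1433 reads per 1000000 TE reads in WT, 1030, 1201 and 1109 for Dnmt3C KO, 1527, 1324 and 1548 for Nrf1 cKO, and 1362, 1296 and 1495 for dKO. All 3 Dnmt3C KO libraries lay below the other 8. The definition of a unit was chosen after the values of the copies were seen, so no test is given.

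**Figure D5:**
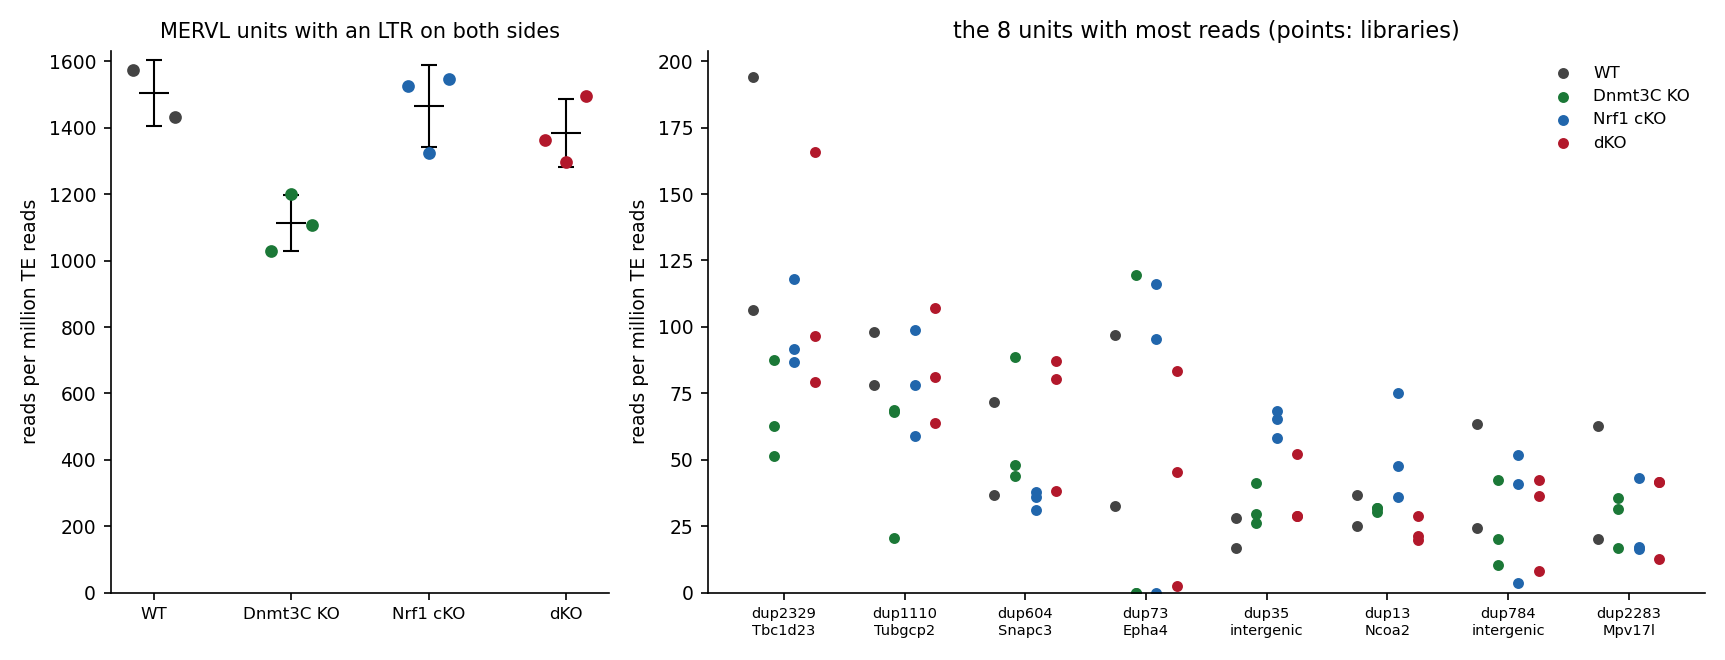
Left, reads per 1000000 TE reads summed over 575 MERVL units with an MT2_Mm LTR on both sides, 1 point per library, mean and SD as a black bar; Dnmt3C KO spans 1030 to 1201 and the other genotypes 1296 to 1574. Right, the 8 units with most reads, 1 point per library, named by their internal copy and gene.

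At the level of single copies, 5140 ERVL copies of at least 1 TPM in 2 or more libraries were tested by limma on log2(TPM + 1), a scale that understates the change of low copies. In Nrf1 deleted over intact, 1 ERVL copy passed an adjusted p of 0.01, among 3 of 258372 TE copies (0.00116%). It was MT2B_dup11625, a fragment of 16 bases at chr15:12169631-12169646 in an intron of Zfr, an RNA-binding zinc finger gene, on the gene's strand. It was at 0 TPM in all 5 libraries with Nrf1 intact, at 149, 107 and 60.2 TPM for Nrf1 cKO, and at 57.3, 88.9 and 0 for dKO. The copy passed the filter only through the libraries with Nrf1 deleted, where it was high, so its limma call is no support for a difference. These values rest on 27 reads, namely 6, 7 and 3 for Nrf1 cKO and 5, 6 and 0 for dKO, and with a pseudocount of 0.1 no ERVL copy passed. There were 56 copies higher and 127 lower at p under 0.05 unadjusted, beside 3.89% of all TE copies. In Dnmt3C lost over intact, 0 ERVL copies passed by limma (0.00503% of all TE copies did), and without adjustment 83 were higher and 91 lower at p under 0.05 (3.77% of all TE copies). A count test on the recovered reads, chosen after seeing the data, called 0 of 313 ERVL copies in both, with 7 higher and 5 lower in the first and 4 higher and 6 lower in the second at p under 0.05 unadjusted; of 17070 TE copies so tested, 0.0% were called and 3.68% had such a p in the first, and 0.545% and 5.97% in the second. On simulated data of Nrf1 deleted over intact in which 200 features differed by 2 on the log2 scale, limma recovered 8.50% of the copies (258372 tested) and edgeR 97.5% of the genes and subfamilies (21762 tested), so the copy test misses most changes of that size.

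Of 25 genes that accompany MERVL in the 2-cell embryo, 15 were in the count tables and the other 10 were not analysed here. Of the 15, 12, among them the telomere-associated Zscan4a, Zscan4c, Zscan4d and Zscan4f, the DUX gene Duxf3, and Usp17la to Usp17le, had fewer than 10 counts in every library. Sp110, a nuclear body protein that had enough counts to be tested, did not pass in any comparison by edgeR. The 20 known repressors of MERVL covered a wide range of levels: Trim28, the corepressor of KRAB zinc finger proteins, was between 228 and 419 CPM, Setdb1, an H3K9 methyltransferase, between 90.7 and 137, and Kdm1a, a histone demethylase, between 82.2 and 125, while Zfp42 was between 0.79 and 1.92 CPM. Of 20 repressors tested, 0 passed by edgeR. At an unadjusted p under 0.05, 1 of 20, the chromatin remodeller Atrx, was lower in Dnmt3C KO over WT (2.86% of all features), and 1 of 20, Zfp42, a zinc finger protein of pluripotent cells, was lower in Nrf1 cKO over WT (4.22%) and in Nrf1 deleted over intact (4.3%) and higher in Dnmt3C KO over Nrf1 cKO (6.27%). In the interaction 2 of 20, Atrx and Rif1, were higher (3.68%). Zfp42 was at 1.86 and 1.65 CPM in WT, at 1.92, 1.75 and 1.68 for Dnmt3C KO, at 0.79, 0.84 and 0.81 for Nrf1 cKO, and at 1.15, 1.54 and 1.25 for dKO, so all 5 Nrf1-intact libraries lay above all 6 with Nrf1 deleted, beside 0.728% of all features not overlapping. The germ cell markers had a median of -1.25 in Nrf1 cKO over WT (above), and their part in this was not tested. Of 6 activators, 4 were tested and 0 passed by edgeR; Nelfa, a subunit of an elongation factor, was between 32.6 and 51.8 CPM.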

How the data were processed

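Poly-A RNA of whole testes of 4 genotypes was sequenced, and the 11 libraries were assigned to genotypes from the labels. Reads were aligned by the authors to GRCm38 with STAR 2.7.3a, with multi-mapping reads kept, and assigned to genes and TE subfamilies with TEtranscripts. The deposited counts are raw, in 6 pairwise tables, beside columns of their own DESeq2 1.44.0 comparison, which were not used. The TPM per TE copy were made by the authors with TElocal and normalized to TE copies alone; the copy table holds no genes and sums to 1000000 per library. No value column was left unmapped (0).

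Joined, the tables cover 33188 genes and 1088 subfamilies of TEs. edgeR 4.0.16 in R 4.3.3 (filterByExpr, TMM, quasi-likelihood F test) was run on the libraries of each pair, and on all 11 for the interaction, Nrf1 deleted over intact and Dnmt3C lost over intact, with Benjamini-Hochberg adjustment over all genes and subfamilies and a threshold of 0.01. Copies of at least 1 TPM in 2 libraries were tested by limma 3.58.1 on log2(TPM + 1). Exact permutation tests used scipy 1.17.1. Reads per copy were recovered as TPM times length divided by the value of 1 read; they made up 94.5 to 95.8% of the ERVL counts of a library. Total counts were 26063590 to 39365841 per library and are reads without molecular identifiers. Positions come from a GENCODE annotation of the same build, of an earlier release than the authors used, and start sites from RefSeq. The scripts were tested on simulated data in which 200 features differed by 2 on the log2 scale, of which edgeR recovered 93.5% in Dnmt3C KO over WT (21603 features) and 73% in the interaction (22620 features).

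The subfamilies named are MERVL-int, MT2_Mm, the other MT2 and MERVL subfamilies, the 10 with the highest mean CPM, any called, and the 3 with the smallest p per comparison. Copies named are the 5 MERVL-int, 5 MT2_Mm and 10 other copies of highest mean TPM and any called, and the genes come from lists of 2-cell genes, MERVL regulators and cell type markers. The members and lists were chosen with earlier results of these data known; the copies ranked by reads, the units with an LTR on both sides, MT2_Mm_dup68 with Epha4, Fv1 and the DUX-type motif were chosen after values were seen. Alternatives were DESeq2 1.42.0 (size factors or Wald test), no filter, an adjusted p under 0.05, gene-only library sizes, all genotypes in one fit, summed TPM, a replicate block, and leaving out each library. A gene of the 2-cell list is not reported here.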

Additional observations from a re-analysis of the deposited data

How the results depend on the processing

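No ERVL subfamily was called under any of 87 alternative settings over the 9 comparisons or with any library left out (0 in each). The log2 fold changes of MERVL-int and MT2_Mm kept their sign in 72 of 78 and 68 of 78 alternatives, none of which passed the threshold. Scaling to TE counts alone, added after seeing the data, reversed MERVL-int in Nrf1 cKO over WT (0.054), dKO over WT (0.026), dKO over Nrf1 cKO (-0.0064) and Nrf1 deleted over intact (0.15), and MT2_Mm in the first 3 of these (0.13, 0.026 and -0.087). Summed TPM, with a pseudocount of 1 or 0.1, reversed MT2_Mm in Nrf1 cKO over WT (0.25 and 0.25), dKO over Nrf1 cKO (-0.29 and -0.29) and the interaction (-0.039 and -0.039), and MERVL-int in Nrf1 deleted over intact (0.05 and 0.05). Gene-only library sizes reversed MT2_Mm in Nrf1 deleted over intact (-0.0032). MT2_Mm_dup235, a fragment of 31 bases, held 24.0% of the MT2_Mm TPM, and its part in the reversals by summed TPM was not tested. The cause of the other reversals was not tested either.

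Leaving out each library moved MERVL-int between -0.67 and -0.44 in Dnmt3C KO over WT, -0.69 and -0.37 in Nrf1 cKO over WT, -0.30 and -0.072 in dKO over WT, 0.24 and 0.49 in dKO over Nrf1 cKO, 0.29 and 0.45 in dKO over Dnmt3C KO, 0.76 and 1.05 in the interaction, -0.14 and 0.10 in Dnmt3C KO over Nrf1 cKO, -0.12 and 0.11 in Nrf1 deleted over intact, and -0.18 and 0.05 in Dnmt3C lost over intact. MT2_Mm moved between -0.57 and -0.25 in Nrf1 cKO over WT, -0.28 and -0.13 in dKO over WT, 0.062 and 0.38 in dKO over Nrf1 cKO, 0.23 and 0.39 in dKO over Dnmt3C KO, 0.58 and 0.89 in the interaction, -0.24 and -0.033 in Dnmt3C lost over intact, -0.27 and 0.027 in Dnmt3C KO over Nrf1 cKO, and -0.087 and 0.11 in Nrf1 deleted over intact. The ERVL copies called were 0 to 1 in Nrf1 deleted over intact, with 0 when WT replicate 1, WT replicate 2 or dKO replicate 2 was left out, and 0 to 1 in Dnmt3C lost over intact, where Nrf1 cKO replicate 1 or replicate 3 left out gave 1. In Nrf1 deleted over intact no copy (0) was called on log2(TPM + 0.1), with any TPM above 0 in 2 libraries, or by edgeR on recovered reads. The ERVL share difference lay between -0.027 and 0.052 percentage points with a library left out, and was -0.0052 as a share of all counts, -0.030 in the libraries without Dnmt3C and -0.0087 without MERVL-int and MT2_Mm.

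The replicate numbers were not used as pairs in the main tests, although the paper took littermate controls where it could. Same-numbered libraries correlated between -0.335 and 0.299 in their deviations (15 pairs), and 4 of 11 libraries correlated best with their own number. Deviations from the mean of so few libraries are tied to one another, so these correlations cannot exclude pairing. The replicate numbers are those of the sample titles. In the file columns, replicate 3 of Dnmt3C KO and of dKO carries another number, which touches 3 of the 15 pairs and the block. With the number as a block, 0 ERVL subfamilies were called in each comparison, and MERVL-int was -0.58 in Dnmt3C KO over WT and 0.96 in the interaction. Depth limits single copies: the median copy had 2 reads over 11 libraries.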

Other observations

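By chromosome, ERVL reads did not follow the number of copies everywhere. Chromosome 2 held 7.78% of the ERVL copies and 16.1% of their reads, and RMER15_dup1660, which lies there, alone held 7.40% of all ERVL reads. Chromosome 19 held 2.63% of the copies and 3.82% of the reads, and the X chromosome 3.53% of the copies and 2.73% of the reads. The Y chromosome had 24 copies with 127 reads. These shares are descriptions over all 11 libraries, with no test.

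Of the 595 MERVL-int copies of 5000 bases or more, 12 had an MT2_Mm copy on 1 side and 8 had none within 200 bases. The 12 held 31 reads in all libraries together. The 8 held 100, of which 64 were on 1 copy.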
